A study of Mus musculus with 8 samples.

Results

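Hippocampal interneurons are the local inhibitory cells that release GABA, and 31 genes that mark them or set their fate were followed here in mouse hippocampus. The genes were taken by symbol from the deposited tables. They matched 33 rows with 32 gene identifiers among 55188 genes, because Dlx6os1 has 2 identifiers. RNA from hippocampus of C57BL/6 mice was sequenced before fear conditioning in wild-type (WT) animals and in animals whose label is knockout (KO) for Pyk2, the tyrosine kinase made from Ptk2b that responds to calcium. All samples of both groups are described in the labels as transgenic mice. Age is not given in the sources used here. Each group held 2 numbered units, WT1, WT2, KO1 and KO2, with 2 technical replicates each, and each number was treated as 1 animal (n = 2 per group). Nothing in the labels says that the numbers are separate mice, so the spread behind each p-value is that between these units.

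Interneurons make GABA with the glutamate decarboxylases Gad1 and Gad2 and divide into classes that differ in the part of the pyramidal cell they contact. Parvalbumin cells contact the soma and axon, somatostatin cells the dendrites, Vip cells mainly other interneurons, Cck cells the soma and dendrites, and neurogliaform cells release GABA diffusely into the dendritic layers. Classes born in the medial ganglionic eminence depend on Lhx6 and Sox6, those born in the caudal eminence carry Adarb2 and Npas1, and Dlx genes act upstream in both.

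Values are FPKM, fragments scaled to transcript length and library total, which allows levels of different genes to be compared. The 8 libraries summed to 489153 to 506251 FPKM with 26483 to 27873 genes above 0. Read totals were not among the values used, so depth is unknown. Every value of the 32 identifiers had the status OK. The targeted gene did not separate the groups as labelled: Ptk2b was 232 and 232 FPKM in the libraries of WT1, 203 and 202 in those of WT2, 277 and 279 in those of KO1 and 264 and 274 in those of KO2, a difference of 0.34 (SE 0.072, 95% interval 0.15 to 0.52, adjusted p = 0.158) on the log2(FPKM + 1) scale, labelled KO minus WT. The level was higher in all 4 libraries labelled KO, and the labels give no deleted part that a gene-level value could be checked against. The groups are therefore called by their labels throughout. In these bulk samples fewer cells of a type and less RNA per cell cannot be told apart.

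The members spanned a wide range of levels. Cck (361 ± 10.9 FPKM, mean ± SD, n = 2 WT animals), Sst (291 ± 15.03), Gad1 (98.98 ± 5.45) and Npy (68 ± 10.6) were highest. Calb2 (33.9 ± 4.68) and Gad2 (29.9 ± 3.12) followed, with overlapping animals, and Pvalb (21.8 ± 0.536) and Dlx1 (19.2 ± 2.59) came next. Apart from the short second identifier of Dlx6os1, the lowest were Dlx2 (3.002 ± 0.537) and Crh (1.17 ± 0.0730). Pyramidal and granule markers were read beside the hippocampal label. No other tissue was compared, so their sums describe the samples and do not check the label. Summed CA pyramidal markers were 224 to 245 FPKM over the WT libraries and 236 to 265 over those labelled KO. Dentate granule markers were 77.4 to 93.1 FPKM over the WT libraries and 73.5 to 83.8 over those labelled KO.

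**Figure D1:**
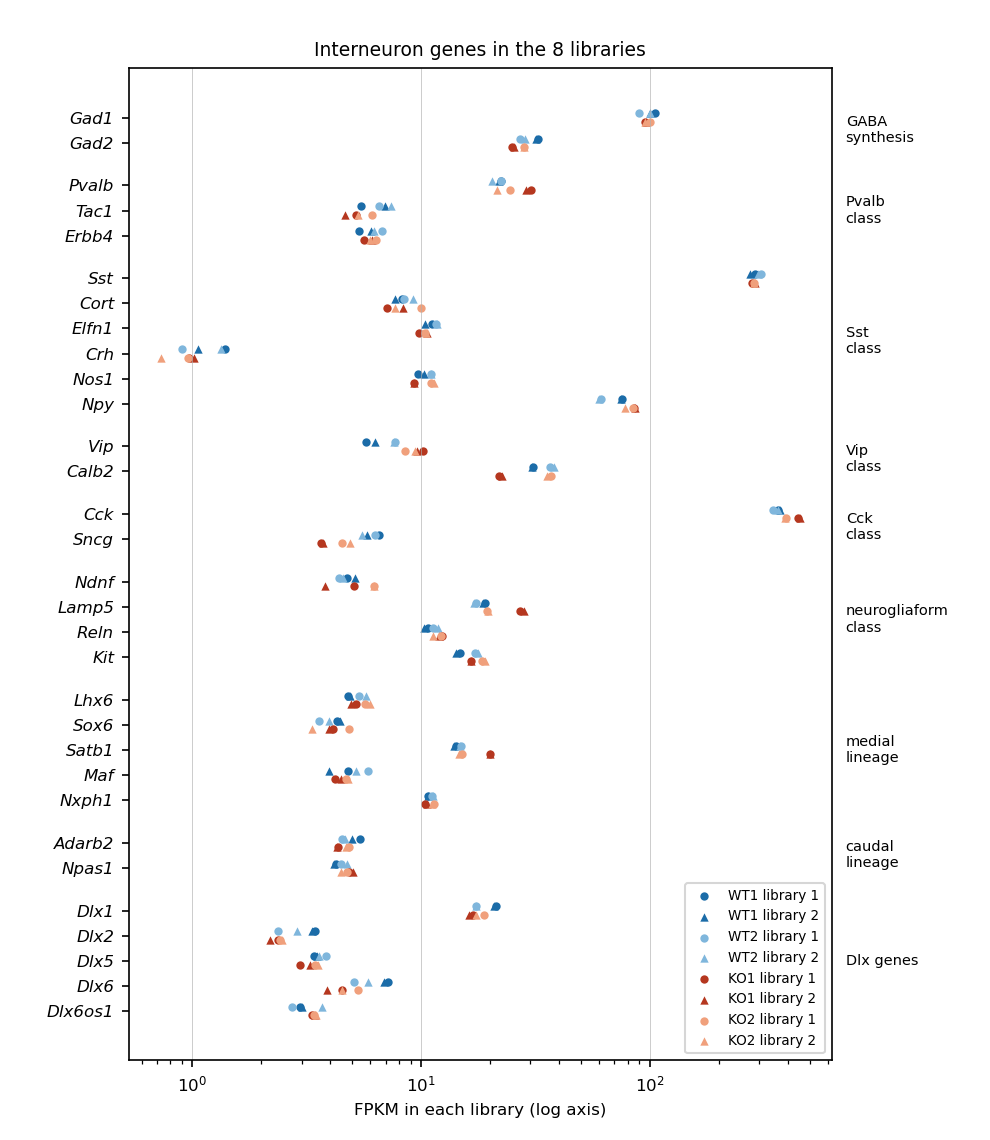
FPKM of each interneuron gene in each library on a log axis, grouped by class, with blue for WT, red for labelled KO, circles for technical replicate 1 and triangles for technical replicate 2. Technical replicates differ by a median of 4.45% of the mean, and by up to 38.9% for Crh, 36.9% for Sox6, 29.6% for Dlx6os1 and 28.5% for Ndnf. The largest separations of animals within a group are between KO1 and KO2 for Calb2, Lamp5, Ndnf and Satb1.

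For the comparison of the animals labelled KO with WT, none of the 32 identifiers passed an adjusted p of 0.05 (limma, Benjamini-Hochberg over all 16667 genes tested), against 0.054% of all genes, which were 9 genes, all lower. All 32 identifiers passed the minimum of 0.5 FPKM in 2 animals. Vip, Npy and Cck were higher and Sncg, Dlx6 and Tac1 lower at an unadjusted p under 0.05. These are 3 of 32 higher (9.38%) and 3 of 32 lower (9.38%), beside 4.11% and 11.4% of all genes tested. The 2 groups of animals did not overlap for 9 identifiers that were higher (28.1%) and 6 that were lower (18.8%), beside 18.4% and 30.7% of all genes. By direction alone 13 were higher (40.6%) and 19 lower (59.4%), beside 42.0% and 58.0% of all genes. The median difference was -0.025, beside -0.022 for all genes. Under quantile normalization the split by direction turned to 19 higher and 13 lower, and under median-of-ratios scaling it was 16 and 16. An exact permutation test of 2 against 2 animals cannot give a p below 0.333, which is the value for each gene whose groups did not overlap.

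**Figure D2:**
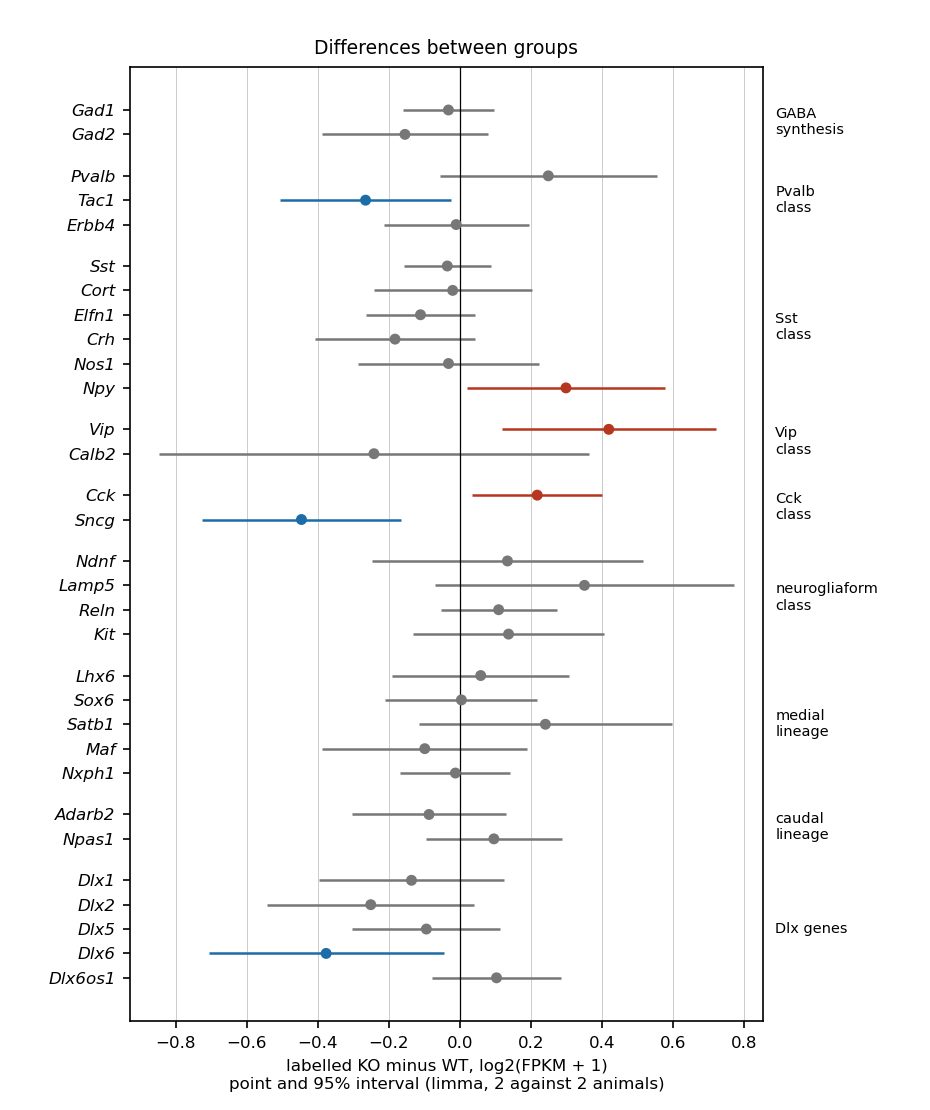
Difference of the animals labelled KO minus WT in log2(FPKM + 1) for each interneuron gene, with its 95% interval from limma (2 against 2 animals). Red and blue mark genes higher and lower at an unadjusted p under 0.05 (Vip, Npy and Cck, and Sncg, Dlx6 and Tac1), grey the others, and none passed after adjustment over all genes.

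The promoters of 5 neuropeptide genes are shown: Vip, Cck, Npy and Tac1 are the peptide genes among the 6 genes with an unadjusted p under 0.05, and Sst is the classic target of the cAMP response element. RefSeq windows on GRCm38.p6 run from 250 bases before to 50 bases after the start, 5′ to 3′ along the gene, and the first window listed for each gene was taken. Capitals mark TGACG or its reverse complement CGTCA, the core of the element.
Sst (chr16:23890795-23891094, minus strand): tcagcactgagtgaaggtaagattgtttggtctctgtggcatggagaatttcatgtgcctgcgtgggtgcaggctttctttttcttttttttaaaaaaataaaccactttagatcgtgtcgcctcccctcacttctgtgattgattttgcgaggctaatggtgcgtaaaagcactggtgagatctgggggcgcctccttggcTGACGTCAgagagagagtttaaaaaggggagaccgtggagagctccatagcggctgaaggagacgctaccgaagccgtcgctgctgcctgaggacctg
Vip (chr10:5638968-5639267, plus strand): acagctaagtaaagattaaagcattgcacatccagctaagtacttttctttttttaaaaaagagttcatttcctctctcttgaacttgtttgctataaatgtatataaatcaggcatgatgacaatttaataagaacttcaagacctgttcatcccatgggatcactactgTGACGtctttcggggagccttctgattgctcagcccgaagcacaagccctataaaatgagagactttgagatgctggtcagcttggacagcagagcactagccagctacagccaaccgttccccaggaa
Cck (chr9:121495645-121495944, minus strand): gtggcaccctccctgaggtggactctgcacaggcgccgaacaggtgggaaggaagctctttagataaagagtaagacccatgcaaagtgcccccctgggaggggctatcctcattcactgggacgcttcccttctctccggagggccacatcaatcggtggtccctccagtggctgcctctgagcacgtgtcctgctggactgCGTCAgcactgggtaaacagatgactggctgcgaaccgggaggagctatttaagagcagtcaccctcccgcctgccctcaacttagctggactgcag
Tac1 (chr6:7554811-7555110, plus strand): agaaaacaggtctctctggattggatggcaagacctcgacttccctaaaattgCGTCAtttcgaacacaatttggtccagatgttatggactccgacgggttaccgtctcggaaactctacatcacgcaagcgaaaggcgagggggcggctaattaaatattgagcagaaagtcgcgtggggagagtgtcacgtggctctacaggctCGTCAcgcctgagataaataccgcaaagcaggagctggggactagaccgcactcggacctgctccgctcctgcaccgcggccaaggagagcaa
Npy (chr6:49822460-49822759, plus strand): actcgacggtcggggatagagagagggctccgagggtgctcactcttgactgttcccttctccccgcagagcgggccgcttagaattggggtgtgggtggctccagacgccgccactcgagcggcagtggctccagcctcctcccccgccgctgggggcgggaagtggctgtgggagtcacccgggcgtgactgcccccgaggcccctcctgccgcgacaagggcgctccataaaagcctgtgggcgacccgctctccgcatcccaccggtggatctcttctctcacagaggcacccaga
In Sst the 2 cores begin at -48 and -45 and overlap as the full palindrome TGACGTCA. The core begins at -79 in Vip, at -47 in Cck and at -197 and -43 in Tac1, and is not in the Npy window. Of the 31 genes, 25 had RefSeq windows, 40 in all. The full element was in 1 of the 40 windows (2.5%), that of Sst, and in 1.79% of all 32851 windows of this length. The core was in 11 of the 40 windows (27.5%), from 11 genes, and in 20.8% of all windows. The homeodomain core TAATTA, the letters Dlx proteins bind, was in 5 of the 40 windows (12.5%), from Adarb2, Cort, Dlx6os1 and Tac1, and in 5.29% of all. Both strands were searched, and a match is a description of letters only. Of the 6 genes at an unadjusted p under 0.05, Dlx6 had no RefSeq window and was not searched, and Npy lacked the core. The other 4 had it: Vip and Cck were higher in the animals labelled KO, and Tac1 and Sncg, whose core begins at -3, were lower.

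GABA synthesis showed no difference that passed the test. Gad1, which makes most of the GABA used for basal supply, was 106 and 99.97 FPKM in the libraries of WT1, 89.8 and 100.4 in those of WT2, 95 and 96.3 in those of KO1 and 100.2 and 95.3 in those of KO2. The groups overlapped, and the difference was -0.032 (SE 0.049, 95% interval -0.16 to 0.095, adjusted p = 0.8). Gad2, the synaptic decarboxylase, was 32.5 and 31.8 FPKM in the libraries of WT1, 27.03 and 28.4 in those of WT2, 25.1 and 25.4 in those of KO1 and 28.3 and 28.3 in those of KO2. Its highest animal was WT1 and its lowest KO1, with WT2 and KO2 between them, and the difference was -0.15 (SE 0.091, 95% interval -0.39 to 0.079, adjusted p = 0.47). It was -0.052 without WT1 and -0.26 without WT2. Slc32a1, the transporter that loads GABA into vesicles, was read beside them: it was 40.1 and 40.2 FPKM in the libraries of WT1, 35.2 and 36.1 in those of WT2, 30.05 and 30.97 in those of KO1 and 31.9 and 33.1 in those of KO2. All 4 libraries labelled KO were below all 4 WT libraries, by 16.9% on the means, and the difference of -0.26 (SE 0.07, 95% interval -0.44 to -0.078, adjusted p = 0.216) did not pass the threshold. The ratio of Gad1 to Slc32a1 was 2.56 and 2.67 in WT1 and WT2 and 3.14 and 3.01 in KO1 and KO2, and did not overlap between groups.

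Among parvalbumin-class genes no member passed. Pvalb, the calcium buffer of fast-spiking basket cells, was 22.4 and 21.9 FPKM in the libraries of WT1, 22.3 and 20.4 in those of WT2, 30.3 and 28.8 in those of KO1 and 24.5 and 21.4 in those of KO2. KO1 stood above the other 3 animals, and the second library of KO2 lay below 3 of the 4 WT libraries. The difference was 0.25 (SE 0.12, 95% interval -0.056 to 0.55, adjusted p = 0.392), 0.074 without KO1 and 0.42 without KO2. Tac1, the precursor of substance P (ENSMUSG00000061762, chr6:7554879-7565834, plus strand), was 5.48 and 6.94 FPKM in the libraries of WT1, 6.55 and 7.39 in those of WT2, 5.18 and 4.66 in those of KO1 and 6.12 and 5.32 in those of KO2. Both animals labelled KO were below both WT animals, although the libraries overlapped. The difference was -0.27 (SE 0.093, 95% interval -0.51 to -0.025, adjusted p = 0.288), with an unadjusted p of 0.0363, and -0.17 without KO1 and -0.36 without KO2. It also depended on the libraries, at -0.077 (unadjusted p = 0.54) from technical replicate 1 only and -0.45 (unadjusted p = 0.00355) from technical replicate 2 only. The ratio of Tac1 to Pvalb was 0.281 and 0.326 in WT1 and WT2 and 0.167 and 0.249 in KO1 and KO2. Erbb4, the neuregulin receptor on these cells, was 6.08 ± 0.569 FPKM in WT and 6.02 ± 0.212 in the animals labelled KO, a difference of -0.011 (SE 0.079, 95% interval -0.21 to 0.19, adjusted p = 0.964). Tac1 is also expressed by striatal spiny neurons, whose summed markers were 100.4 to 108 FPKM over the WT libraries and 72.4 to 73.5 over those labelled KO. The markers Ppp1r1b and Penk make up most of that sum and of its difference. The part of striatal spiny neurons in the Tac1 values was not tested.

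Of the somatostatin-class genes 5 of 6 were lower on the means, beside 58.0% of all genes tested. Npy was higher, and none was past the adjusted threshold. Under quantile normalization Cort and Nos1 changed direction, and 3 were higher and 3 lower. Sst, the peptide that defines dendrite-targeting cells, was 287 and 274 FPKM in the libraries of WT1, 305 and 298 in those of WT2, 279 and 287 in those of KO1 and 284 and 285 in those of KO2. The groups overlapped, and the interval of the difference was narrow at -0.036 (SE 0.047, 95% interval -0.16 to 0.086, adjusted p = 0.766). Cortistatin, encoded by Cort and related to somatostatin, was 8.38 ± 0.590 FPKM in WT and 8.26 ± 0.802 in the animals labelled KO (-0.02, adjusted p = 0.935). Elfn1, a postsynaptic adhesion protein of these cells, was 11.2 ± 0.642 FPKM in WT and 10.3 ± 0.195 in the animals labelled KO; both animals labelled KO were lower (-0.11, adjusted p = 0.437). Crh, corticotropin-releasing hormone, was 1.17 ± 0.0730 FPKM in WT and 0.914 ± 0.106 in the animals labelled KO and likewise lower in both animals (-0.18, adjusted p = 0.395). Crh was the least precisely measured, with deposited intervals of 23.4% to 34.2% on each side. Nos1, neuronal nitric oxide synthase, was 10.5 ± 0.732 FPKM in WT and 10.3 ± 1.32 in the animals labelled KO (-0.032, adjusted p = 0.908).

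Npy, the neuropeptide shared by somatostatin, neurogliaform and ivy cells (ENSMUSG00000029819, chr6:49822710-49829507, plus strand), was 75.9 and 75.1 FPKM in the libraries of WT1, 61.05 and 59.9 in those of WT2, 85.3 and 86.2 in those of KO1 and 83.98 and 78.1 in those of KO2. All 4 libraries labelled KO exceeded all 4 WT libraries, and the WT animals differed from each other by more than the animals labelled KO did. On the means Npy was 22.7% higher, with a difference of 0.30 (SE 0.11, 95% interval 0.02 to 0.58, adjusted p = 0.299) and an unadjusted p of 0.0401. Without WT1 the difference was 0.46 (adjusted p = 0.235), and without WT2, the lowest animal, it was 0.14 (adjusted p = 0.661). The ratio of Sst to Npy was 3.72 and 4.99 in WT1 and WT2 and 3.30 and 3.51 in KO1 and KO2.

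Of the Vip-class genes, Vip and Calb2 followed different animals. Vip, vasoactive intestinal peptide, which marks cells that inhibit other interneurons (ENSMUSG00000019772, chr10:5639218-5647617, plus strand), was 5.76 and 6.26 FPKM in the libraries of WT1, 7.72 and 7.58 in those of WT2, 10.2 and 9.60 in those of KO1 and 8.53 and 9.37 in those of KO2. Every library labelled KO was above every WT library. Vip was 38% higher on the means, with a difference of 0.42 (SE 0.12, 95% interval 0.12 to 0.72, adjusted p = 0.225) and an unadjusted p of 0.0159. Leaving out each animal in turn kept the difference between 0.27 (without WT1) and 0.57 (without WT2). Calb2, which encodes the calcium buffer calretinin, was 30.7 and 30.5 FPKM in the libraries of WT1, 36.5 and 37.9 in those of WT2, 21.9 and 22.5 in those of KO1 and 37.02 and 35.4 in those of KO2. KO1 was low and KO2 lay within the WT range, so the difference of -0.24 (SE 0.24, 95% interval -0.85 to 0.36, adjusted p = 0.668) became 0.10 without KO1 and -0.58 without KO2. Calretinin is also made by mossy cells of the dentate hilus and by Cajal-Retzius cells. Summed mossy cell markers, Calb2 included, were 25.8 FPKM in KO1 and 40.6 in KO2, beside 37.9 and 42.6 in WT1 and WT2. Calb2 makes up most of that sum. Without it, Glp1r was 4.70 and 3.03 FPKM in WT1 and WT2 and 1.80 and 2.64 in KO1 and KO2. All 3 tested mossy cell markers, Calb2 among them, were lower, beside 58.0% of all genes tested. Of the 3, Glp1r and Drd2 were lower at an unadjusted p under 0.05, beside 11.4% of all genes. Drd2 is also on the list of striatal markers, and Csf2rb2 was under the minimum. The part of mossy cells and Cajal-Retzius cells in the Calb2 values was not tested.

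The Cck-class genes Cck and Sncg differed in opposite directions, and neither passed the adjusted threshold. Cck, cholecystokinin (ENSMUSG00000032532, chr9:121489824-121495694, minus strand), was 365 and 372 FPKM in the libraries of WT1, 344 and 362 in those of WT2, 443 and 452 in those of KO1 and 395 and 391 in those of KO2. All 4 libraries labelled KO were higher than all 4 WT libraries, with KO1 highest. The means differed by 16.6%, and the difference was 0.22 (SE 0.071, 95% interval 0.035 to 0.40, adjusted p = 0.265) with an unadjusted p of 0.0279. Without KO1 it was 0.12 (adjusted p = 0.503). Pyramidal cells make Cck too. Of 6 CA pyramidal markers, 5 were higher and 1 lower, beside 42.0% and 58.0% of all genes tested, with 0 at an unadjusted p under 0.05. Their sum was 244 and 226 FPKM in WT1 and WT2 and 263 and 237 in KO1 and KO2. KO1 was highest there too, but KO2 lay below WT1, and the part of pyramidal cells in the Cck values was not tested.

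Sncg, gamma-synuclein, a marker of Cck basket cells (ENSMUSG00000023064, chr14:34370274-34374789, minus strand), was 6.55 and 5.77 FPKM in the libraries of WT1, 6.28 and 5.53 in those of WT2, 3.63 and 3.73 in those of KO1 and 4.50 and 4.88 in those of KO2. Here every library labelled KO was below every WT library. Sncg was 30.6% lower on the means and had the lowest p of all members, with a difference of -0.45 (SE 0.11, 95% interval -0.73 to -0.17, adjusted p = 0.186) and an unadjusted p of 0.00932. It ranged from -0.59 without KO2 to -0.31 without KO1, with an unadjusted p under 0.05 each time an animal was left out. Of the 6 genes at an unadjusted p under 0.05 it alone kept this in all 4 such fits. The ratio of Sncg to Cck was 0.0167 and 0.0167 in WT1 and WT2 and 0.00823 and 0.0119 in KO1 and KO2. Both animals labelled KO were below both WT animals in this ratio, which follows from the opposite directions of the 2 genes. All ratios printed here are from a larger set and are among those whose animals did not overlap between groups. In that set Sst to Cort, Vip to Pvalb, Lamp5 to Ndnf, Lhx6 to Sst and Lhx6 to Adarb2 overlapped.

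Neurogliaform genes were higher on the means in 4 of 4, beside 42.0% of all genes tested, and none passed the test. All 4 were also higher under both other scalings. Lamp5, a lysosome-associated membrane protein that marks these cells, was 18.9 and 18.6 FPKM in the libraries of WT1, 17.4 and 16.9 in those of WT2, 27.2 and 28.02 in those of KO1 and 19.3 and 19.5 in those of KO2. All 4 libraries labelled KO were above WT, but KO1 stood far above and KO2 only just above. The difference of 0.35 (SE 0.16, 95% interval -0.07 to 0.77, adjusted p = 0.385) was 0.11 without KO1 and 0.59 without KO2 (adjusted p = 0.0689). Reln, the secreted protein reelin, was 11.02 ± 0.728 FPKM in WT and 11.9 ± 0.326 in the animals labelled KO (0.11, adjusted p = 0.468), and both animals labelled KO were higher. Kit, the receptor of stem cell factor, was 15.95 ± 2.06 FPKM in WT and 17.6 ± 1.55 in the animals labelled KO (0.14, adjusted p = 0.577), with overlapping animals. Ndnf, a secreted neurotrophic factor, was 4.71 ± 0.346 FPKM in WT and 5.32 ± 1.26 in the animals labelled KO (0.13, adjusted p = 0.712), and was high in KO2 alone: the difference was 0.34 without KO1 and -0.071 without KO2.

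Reln and Ndnf are also products of Cajal-Retzius cells, early neurons of the outer layers. Summed Cajal-Retzius markers, these genes and Calb2 included, were 48.5 to 57.1 FPKM over the WT libraries and 39.5 to 57.1 over those labelled KO, and Calb2 makes up most of that sum. Their defining gene Trp73 was 2.01 ± 0.0697 FPKM in WT and 1.12 ± 0.291 in the animals labelled KO, lower in both (-0.52, unadjusted p = 0.00695, adjusted p = 0.171). Lhx1 and Lhx5 were under the minimum. Reln and Trp73 thus lay on opposite sides of WT, and the part of these cells in the Reln and Ndnf values was not tested.

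Of the fate genes of the medial ganglionic eminence, 3 of 5 were higher and 2 lower, beside 42.0% and 58.0% of all genes tested. Of these 5, 0 had an unadjusted p under 0.05. Lhx6, the LIM homeodomain factor of this lineage, was 5.20 ± 0.512 FPKM in WT and 5.46 ± 0.550 in the animals labelled KO, with a difference of 0.059 (SE 0.10, 95% interval -0.19 to 0.31, adjusted p = 0.817). Sox6, which acts after Lhx6, was 4.05 ± 0.425 FPKM in WT and 4.05 ± 0.0129 in the animals labelled KO, a difference of 0.0041 (SE 0.083, 95% interval -0.21 to 0.22, adjusted p = 0.987). Maf, a transcription factor of somatostatin and parvalbumin cells, was 4.94 ± 0.812 FPKM in WT and 4.52 ± 0.275 in the animals labelled KO (-0.10, adjusted p = 0.72). Nxph1, a secreted ligand of neurexins, was 10.96 ± 0.378 FPKM in WT and 10.9 ± 0.550 in the animals labelled KO (-0.013, adjusted p = 0.942). Satb1, a chromatin organizer needed for somatostatin cells, was the exception in 1 animal: it was 14.2 and 13.98 FPKM in the libraries of WT1, 14.95 and 14.7 in those of WT2, 20.1 and 20.04 in those of KO1 and 15.1 and 14.6 in those of KO2. KO2 matched the WT libraries, and the gap from KO1 to the next animal was 85.3% of the whole range. The difference was 0.24 (SE 0.14, 95% interval -0.12 to 0.60, adjusted p = 0.463), 0.036 without KO1 and 0.45 without KO2 (adjusted p = 0.082). For the caudal lineage, Adarb2, a member of the RNA-editing enzyme family, was 4.88 ± 0.422 FPKM in WT and 4.53 ± 0.311 in the animals labelled KO (-0.087, adjusted p = 0.668). Npas1, a transcription factor of the same lineage, was 4.39 ± 0.273 FPKM in WT and 4.76 ± 0.245 in the animals labelled KO (0.10, adjusted p = 0.585).

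The Dlx homeobox genes start the GABA programme in the embryo and stay on in interneurons. Of the 6 identifiers in this list 5 were lower, beside 58.0% of all genes tested. The 5 include the short Dlx6os1 identifier (-0.029). An unadjusted p under 0.05 was found for 1 of the 6 (16.7%), beside 15.5% of all genes. Under quantile normalization Dlx5 and the short Dlx6os1 identifier changed direction, and 3 were higher and 3 lower. Dlx6 (ENSMUSG00000029754, chr6:6863334-6868568, plus strand) was 7.13 and 6.91 FPKM in the libraries of WT1, 5.07 and 5.85 in those of WT2, 4.51 and 3.89 in those of KO1 and 5.31 and 4.51 in those of KO2. Both animals labelled KO were below both WT animals, and the libraries overlapped only between WT2 and KO2. Dlx6 was 27.01% lower on the means, with a difference of -0.38 (SE 0.13, 95% interval -0.71 to -0.046, adjusted p = 0.279) and an unadjusted p of 0.0328. It was -0.22 without WT1, the highest animal, and -0.53 without WT2. Dlx2 was 3.42 and 3.34 FPKM in the libraries of WT1, 2.37 and 2.87 in those of WT2, 2.36 and 2.17 in those of KO1 and 2.40 and 2.46 in those of KO2. Its groups of animals did not overlap, with WT1 highest (-0.25, SE 0.11, 95% interval -0.54 to 0.04, adjusted p = 0.372), and the difference was -0.11 without WT1 and -0.39 without WT2. Dlx1 was 21.2 and 20.8 FPKM in the libraries of WT1, 17.4 and 17.4 in those of WT2, 16.9 and 16.2 in those of KO1 and 18.9 and 17.4 in those of KO2, so that WT1 was high and the other 3 animals overlapped (-0.14, adjusted p = 0.567). Without WT1 the Dlx1 difference was -0.0052. Dlx5 was 3.58 ± 0.188 FPKM in WT and 3.29 ± 0.265 in the animals labelled KO (-0.094, adjusted p = 0.62).

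Dlx6os1, the antisense transcript that spans Dlx6 (ENSMUSG00000090063, chr6:6820189-6871592, minus strand), was higher where Dlx6 was lower. It was 2.96 and 3.03 FPKM in the libraries of WT1, 2.73 and 3.68 in those of WT2, 3.32 and 3.44 in those of KO1 and 3.39 and 3.45 in those of KO2, higher in both animals labelled KO (0.10, SE 0.07, 95% interval -0.078 to 0.28, adjusted p = 0.531). The whole Dlx6 locus lies inside that of Dlx6os1, on the opposite strand, but their annotated exons share no bases. No strand setting is given in the sources used here, so unspliced Dlx6os1 reads over the exons of Dlx6 cannot be told apart from those of Dlx6. Dlx6 also shares exonic bases with Dlx6os2. The ratio of Dlx6 to Dlx6os1 was 2.35 and 1.71 in WT1 and WT2 and 1.25 and 1.43 in KO1 and KO2. The second Dlx6os1 identifier, a stretch of 146 bases, lay between 0 and 1.72 FPKM and is not read further. In position, Dlx6 and Dlx5 lie 9.24 kb apart on chromosome 6, with Tac1 673 kb beyond Dlx5. Dlx1 and Dlx2 lie 9.43 kb apart on chromosome 2, 926 kb from Gad1. Dlx1, Lhx6, Maf, Nos1, Reln and Satb1 also share exonic bases with other annotated transcripts.

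Dlx genes and Tac1 are shared with the GABA neurons of the striatum, and 12 striatal spiny neuron markers were read for that reason. Their sum was 106 and 101 FPKM in WT1 and WT2 and 72.7 and 72.97 in KO1 and KO2. Ppp1r1b and Penk (24.03 ± 3.40 FPKM in WT and 17.3 ± 0.133 in the animals labelled KO) make up most of that sum and of its difference. Of the 12, 6 were higher and 6 lower, beside 42.0% and 58.0% of all genes tested. Ppp1r1b, the phosphatase inhibitor of dopamine-receptive cells, fell from 50.9 ± 1.98 to 28.2 ± 0.220 FPKM (-0.83, limma adjusted p = 0.0372). This call was lost without WT1, without WT2 and with no filter on low values. Penk (-0.45), Six3 (-0.75) and Drd2 (-0.35) were lower at an unadjusted p under 0.05, with adjusted p from 0.161 to 0.206. The receptors that define the striatal cell types, given whatever their p, were low in both groups, Drd1 at 1.22 ± 0.142 and 1.06 ± 0.00640 FPKM and Adora2a at 0.512 ± 0.0734 and 0.626 ± 0.0290 in WT and labelled KO. The part of such cells in the Dlx6 values was not tested.

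**Figure D3:**
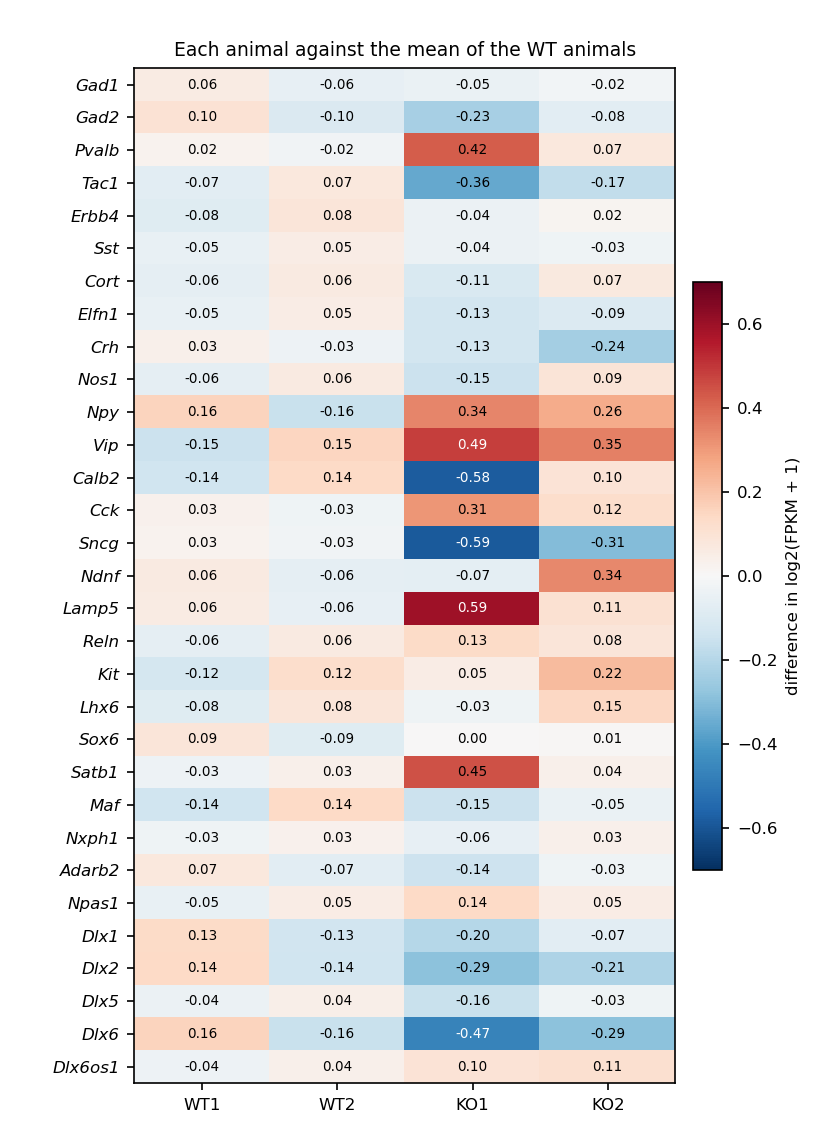
Each animal's log2(FPKM + 1) minus the mean of the 2 WT animals, for each interneuron gene, with red for higher and blue for lower and the value printed in each cell. Vip, Npy, Cck and Sncg share a sign in KO1 and KO2, Calb2 differs in sign between them, and Lamp5, Satb1 and Pvalb are high mainly in KO1.

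Differences between animals of 1 group were as large as those between groups. Over the 31 genes (the short Dlx6os1 identifier left out) the median difference between technical replicates was 4.45% of the mean, between animals of a group 10.2% and between groups 9.85%. Over the 14272 tested genes within the same range of level, these medians were 4.90%, 5.73% and 6.13%. The interneuron genes thus had a like technical difference and a larger difference between animals, in WT (9.96%, beside 5.26%) as in the animals labelled KO (11.3%, beside 6.23%). For 15 of the 31 the gap between KO1 and KO2 exceeded the difference between group means, again unlike measures. This was near the share over all tested genes (8469 of 16667). WT1 and KO1 were the animals farthest from the rest for 11 genes each (35.5%), beside 19.8% and 36.2% of all tested genes, so that the share of KO1 was near that of all genes. WT2 was farthest for 6 and KO2 for 3, beside 24.3% and 19.7% of all genes. KO1 was the lowest animal for 15 of the 31 genes (beside 39.1% of all tested genes), among them Gad2, Tac1, Calb2, Sncg and all 4 protein-coding Dlx genes, and the highest for 8 (beside 22.5%), among them Pvalb, Vip, Cck, Lamp5 and Satb1. WT1 was highest for 9 (beside 26.1%), among them Gad1, Gad2, Dlx1, Dlx2 and Dlx6.

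Outside the 31 genes, 30 other interneuron genes gave a wider view, of which 29 were tested and Chodl was under the minimum. None passed after adjustment. By direction 17 were higher (58.6%) and 12 lower (41.4%), beside 42.0% and 58.0% of all genes tested, with a median of 0.056. An unadjusted p under 0.05 was found for 2 higher (6.90%) and 1 lower (3.45%), beside 4.11% and 11.4% of all genes tested. The lower gene was Slc32a1. The higher were Calb1, the calcium buffer calbindin, at 36.5 ± 2.60 FPKM in WT and 42.8 ± 2.01 in the animals labelled KO (0.22, adjusted p = 0.232), and Cplx1, a complexin of fast synapses, at 217 ± 10.1 FPKM in WT and 241 ± 0.818 in the animals labelled KO (0.15, adjusted p = 0.247). Both genes are expressed outside interneurons as well, Calb1 in granule and pyramidal cells. Kcnc1, a potassium channel of fast-spiking cells, was 32.9 ± 0.296 FPKM in WT and 35.7 ± 1.43 in the animals labelled KO (0.12, adjusted p = 0.322). Nr2f2, a factor of the caudal lineage, chosen for mention after its values were seen, was likewise low in KO1 alone: 9.95 and 13.7 FPKM in WT1 and WT2, 5.71 in KO1 and 13.9 in KO2.

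Receptors for the interneuron signals showed no difference past the adjusted threshold. Of 15 receptor genes, Vipr2 and Tacr1 were under the minimum. Among the 13 tested 10 were higher and 3 lower, beside 42.0% and 58.0% of all genes tested, with a median of 0.062. Gabbr2, a subunit of the metabotropic GABA receptor, was 52.97 ± 2.32 FPKM in WT and 59.2 ± 0.418 in the animals labelled KO (0.16, unadjusted p = 0.0166, adjusted p = 0.229). Npy1r was 9.05 ± 0.609 FPKM in WT and 10.2 ± 0.330 in the animals labelled KO (0.16, adjusted p = 0.34), Cckbr 3.09 ± 0.293 FPKM in WT and 4.11 ± 1.28 in the animals labelled KO (0.30, adjusted p = 0.483) and Sstr4 14.8 ± 0.218 FPKM in WT and 15.8 ± 0.867 in the animals labelled KO (0.086, adjusted p = 0.509).

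Marker lists of choroid plexus and blood separated the groups as labelled. Choroid plexus markers were lower in 9 of 9, with a median of -2.38 and sums of 4206 to 7493 FPKM over the WT libraries and 286 to 1245 over those labelled KO. Blood markers were lower in 5 of 5, with sums of 284 to 318 FPKM over the WT libraries and 149 to 158 over those labelled KO. Among them Hba-a1 and Hba-a2 passed the adjusted threshold, calls lost without WT1, without WT2 and with no filter on low values. With no variance trend, at most 1 of the calls of Hba-a1, Hba-a2 and Ppp1r1b held. Not all of these calls held without KO1 either. Of all genes tested 42.0% were higher and 58.0% lower. Of the dentate granule markers 1 of 6 was higher and 5 lower, and of the thalamus and habenula markers 3 of 6 higher and 3 lower. Summed thalamus and habenula markers were 33.7 and 27.3 FPKM in WT1 and WT2 and 25.99 and 26.1 in KO1 and KO2. Prkcd makes up most of that sum. Of the microglia markers 3 of 4 were higher and 1 lower, and of the oligodendrocyte precursor markers 2 of 4 went each way. Markers of hypothalamus and of mast cells, which make Kit, were near 0, with sums of at most 0.774 and 0.410 FPKM. The part of the tissue make-up in the interneuron values was not tested.

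**Figure D4:**
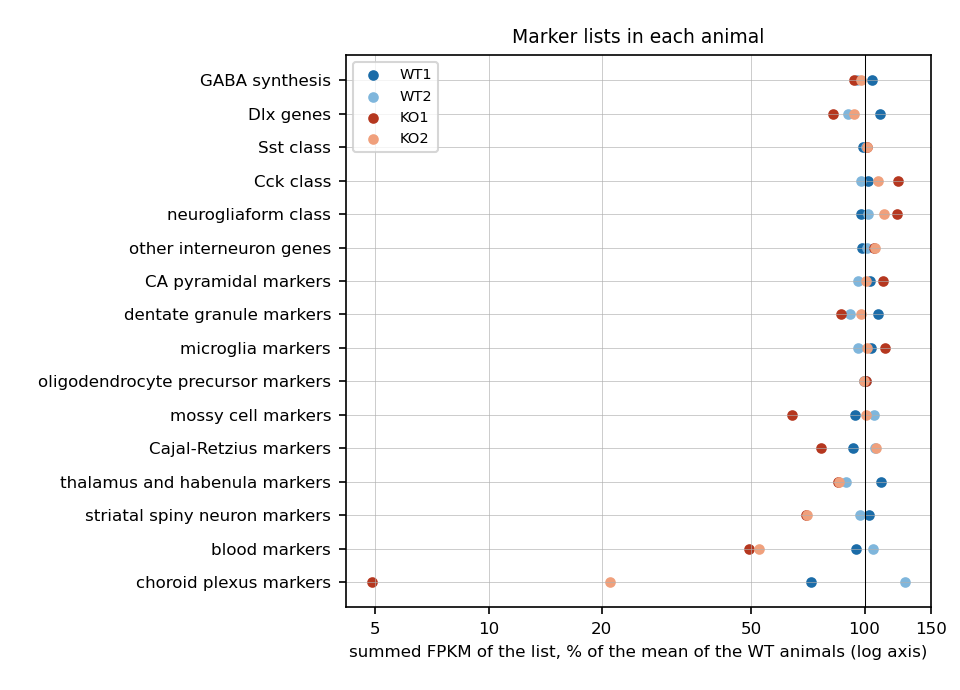
Summed FPKM of each marker list in each animal as a percentage of the mean of the 2 WT animals, on a log axis. Striatal, blood, choroid plexus and thalamus and habenula lists are lower in both animals labelled KO than in both WT animals. The striatal, blood and choroid plexus lists lie farther from the WT mean than the interneuron lists. The striatal list is mostly Ppp1r1b and Penk. Mossy cell and Cajal-Retzius lists, both mostly Calb2, are lowest in KO1, with KO2 near WT.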

How the data were processed

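The authors deposited gene-level FPKM with confidence limits and a status for each of 8 libraries, per the file headers. Bowtie 1, HISAT and the mm10 genome are named, without their roles, in the submitters' processing notes. The program that computed the FPKM is not given in the sources used here, nor is a strand setting. Since FPKM divide by the library total, a few abundant genes shift all others. No counts were recovered, so depth is unknown and its precision is read from replicates. Rows that repeat an identifier were summed, and technical replicates were averaged per animal. The 16667 genes that reached 0.5 FPKM in 2 or more animals were tested as log2(FPKM + 1), which understates fold changes of low genes, with limma 3.58.1 (R 4.3.3, trended variance), labelled KO minus WT, Benjamini-Hochberg threshold 0.05. The procedure was tested on simulated data. Coordinates are the deposited ones, 1-based; gene types come from GENCODE M21. The members, gene lists and minimum were chosen with earlier results of these data known. All members were named, and of each other list up to 4 genes with the smallest p, of which some are printed; Drd1, Adora2a, genes listed as under the minimum and Nr2f2 were named outside this rule, and the values of 1 listed gene are not reported here. Alternatives changed scaling, minimum, pseudocount, variance trend, replicates and animals.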

Additional observations from a re-analysis of the deposited data

How the results depend on the processing

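No member passed the adjusted threshold under 14 of 15 alternatives; 4 (Vip, Sncg, Npy and Cck) did with all 8 libraries as units, where technical replicates count as animals. Over all genes 9 were called, against 0 with no filter on low values, 14 with a pseudocount of 0.1, 1 with no variance trend, 19 and 35 with technical replicate 1 or 2 only, 2022 with all 8 libraries as units and 20 without the first library of KO1, an alternative added after seeing the data. Leaving out each animal gave 0 (without WT1 or WT2) to 128 (without KO2) genes and 1 without KO1; a lone animal then takes its variance from the other group. Members at an unadjusted p under 0.05 numbered 6, against 2 with no filter, 12 with all 8 libraries as units, and 2 (without KO1) to 9 (without KO2) with an animal left out. The median of all members stayed between -0.065 (without KO2) and 0.035 (without KO1), within 1 SD of the animals' medians. It changed sign under median-of-ratios scaling, quantile normalization and without WT2 or KO1. None of the 6 genes at an unadjusted p under 0.05 changed direction under any alternative. The cause of these changes was not tested. With the animal number as a replicate block 184 genes and 0 members were called, and 9 members had an unadjusted p under 0.05 (28.1%, beside 17.4% of all genes). WT1 and KO1 deviated together with a correlation of 0.107, and the labels do not say that a shared number pairs animals. With 2 animals per group and depth unknown, differences of the size between animals of a group are not detectable.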
